A study of Mus musculus with 11 samples.

Results

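The MAP kinase pathway and its brakes were taken from the authors' table of gene counts as every gene row whose symbol begins with Dusp, Spry, Spred, Map2k, Map3k, Map4k, Rasgrp or Rasa and a number, or is Mapk and a number. The rule found 79 of 37224 gene rows, which carry 78 symbols because Map3k4 has 2 rows. They fall into 8 regulators of RAS, 41 kinases and 30 brakes. Of the 79 rows, 65 had at least 100 counts in the 2 pools together, 70 had at least 20, and 2 had none.

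The pathway relays signals from surface receptors, in T cells above all the antigen receptor, to the nucleus. Exchange factors of the Rasgrp family load RAS with GTP and the Rasa proteins, which activate its GTPase, switch it off. Kinases of the Map4k, Map3k and Map2k tiers then phosphorylate one another in turn and end at the MAP kinases ERK, JNK and p38. Dual specificity phosphatases (Dusp) strip the activating phosphates from MAP kinases, and Sprouty and Spred proteins act further up, between receptors, RAS and RAF. Several of these brakes are themselves induced by ERK and so form negative feedback.

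RNA was measured in T cell acute lymphoblastic leukaemias that arose in mice after intravenous transfer of cKit blood progenitors on a C57/BL6 background. All progenitors carried a retrovirus for Notch1-IC, the intracellular and active form of Notch1, so the wild-type leukaemias carry it too. Donors were Utx knockout males (Utx-/Y; 5 samples, 2 from bone marrow and 3 from spleen) or Utx wild-type mice of either sex (Utx+/+ or Utx+/Y; 6 samples, 2 from bone marrow and 4 from spleen). Of these, 1 knockout and 2 wild-type samples are labelled as reruns, and the ages of the mice are not given in the labels. By the series' design text the cells expressed Notch1-IC or were sorted populations of such tumours. The gene Utx, under the symbol Kdm6a in the table, lies on chromosome X and encodes an enzyme that removes a repressive methyl mark from histone H3.

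The table holds 1 pooled count per gene and genotype, with column totals of 106445530 (knockout) and 108015222 (wild-type). Values per tumour are absent from it. Differences below therefore come without a replicate check, and the reads of a gene may stem from 1 tumour or from all of them. Counts were scaled to the column totals (CPM). Each difference is a log2 ratio of the knockout over the wild-type pool, with 0.5 counts added to each, and its 95% interval is an exact Clopper-Pearson interval that covers counting error only. A gene was called higher or lower where the combined count was at least 100, the ratio reached 2-fold in size and the interval did not hold 0. In all pairs of counts below the knockout pool comes first. Kdm6a had 1115 against 6299 counts, which is -2.48 (-2.57 to -2.38) on the log2 scale. T cell markers were abundant in both pools, for example Thy1 (49081 against 103687 counts), Lck (51586 against 68624) and Cd3e (46374 against 48165).

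Promoters of Dusp6, a cytoplasmic phosphatase of ERK, and of Dusp5 and Dusp2, nuclear phosphatases that also act on ERK, are printed because their ratios differed in size and sign. Those of Dusp4 and Dusp9 are not shown. Dusp6 was higher in the knockout pool, while Dusp5 and Dusp2 stood at 0.65 and -0.95 on the log2 scale and were not called. Each run is the 250 bases before the RefSeq start on the gene's own strand, 5′ to 3′, from build GRCm38.p6, which is not the build the authors aligned to. They lie at chr10:99262981-99263230 on the plus strand (Dusp6), chr19:53528895-53529144 on the plus strand (Dusp5) and chr2:127335909-127336158 on the plus strand (Dusp2). Capitals mark matches to 8 motifs, searched on both strands and spelled out below.
Dusp6: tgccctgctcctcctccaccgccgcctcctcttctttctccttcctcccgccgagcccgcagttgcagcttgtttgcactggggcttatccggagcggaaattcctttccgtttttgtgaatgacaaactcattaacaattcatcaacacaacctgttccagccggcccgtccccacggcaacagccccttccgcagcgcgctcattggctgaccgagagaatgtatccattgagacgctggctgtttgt
Dusp5: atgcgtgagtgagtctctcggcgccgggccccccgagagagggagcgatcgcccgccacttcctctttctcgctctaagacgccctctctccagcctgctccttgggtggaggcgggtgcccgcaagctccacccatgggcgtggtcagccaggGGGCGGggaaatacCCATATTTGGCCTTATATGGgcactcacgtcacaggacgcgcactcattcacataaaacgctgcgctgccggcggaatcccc
Dusp2: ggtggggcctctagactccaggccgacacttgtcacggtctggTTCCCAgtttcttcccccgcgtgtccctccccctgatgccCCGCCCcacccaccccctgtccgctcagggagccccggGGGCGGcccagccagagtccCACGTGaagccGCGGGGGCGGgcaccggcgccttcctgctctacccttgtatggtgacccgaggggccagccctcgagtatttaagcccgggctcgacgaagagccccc

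The letters searched were TGACGTCA (cAMP response element), TGANTCA (AP-1), CCGGAAG (ETS), CACGTG (E-box), TGGGAA (RBPJ, the DNA-binding partner of Notch), GCGGGGGCG (Egr), GGGCGG (SP/KLF) and the CArG box, the motif of serum response factor. The CArG box was searched as CCWWWWWWGG, where W is A or T. In the Dusp5 window, 2 CArG boxes lay end to end, from 82 to 73 and from 72 to 63 bases before the start. A CArG box was found in 1.62% of the 27025 genes with a promoter in the RefSeq table and in 2 of the 62 member genes found there. The Dusp2 window held an E-box, an RBPJ match, an Egr match that overlaps an SP/KLF match, and 2 further SP/KLF matches. By gene, RBPJ letters were in 24.1% of all promoters and in 13 of the 62 members. SP/KLF letters were in 35.4% of all and in 45 of the 62 members (72.6%). The median window of the members was also richer in G and C, at 62.8% against 52.4% over all promoters, with 17.5 against 6 CpG pairs. None of the 8 motifs matched in the Dusp6 window, which says only that these letters are not in it.

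Among the members, 8 were called higher and 1 lower in the knockout pool. The 8 were the RAS regulators Rasgrp1 and Rasa3, the kinases Map3k5, Map3k6 and Map3k13, and the phosphatases Dusp3, Dusp4 and Dusp6. The lower member was the phosphatase Dusp9. Over all 13833 genes with at least 100 counts, 11.2% were called higher and 5.36% lower. The members' shares were 12.3% and 1.54%, so the share of higher members lay near that of all genes and is no result about the pathway. The median log2 ratio of the 70 members with at least 20 counts was 0.06, beside -0.07 over all genes with as many. Of the 65 members with enough counts, 31 had an interval above 0, 27 below 0 and 7 across 0, and 56 were not called. The same split was not taken over all genes, so it is no result about the pathway. The median half-width of the members' intervals was 0.09, so even small ratios had intervals that left out 0.

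**Figure D1:**
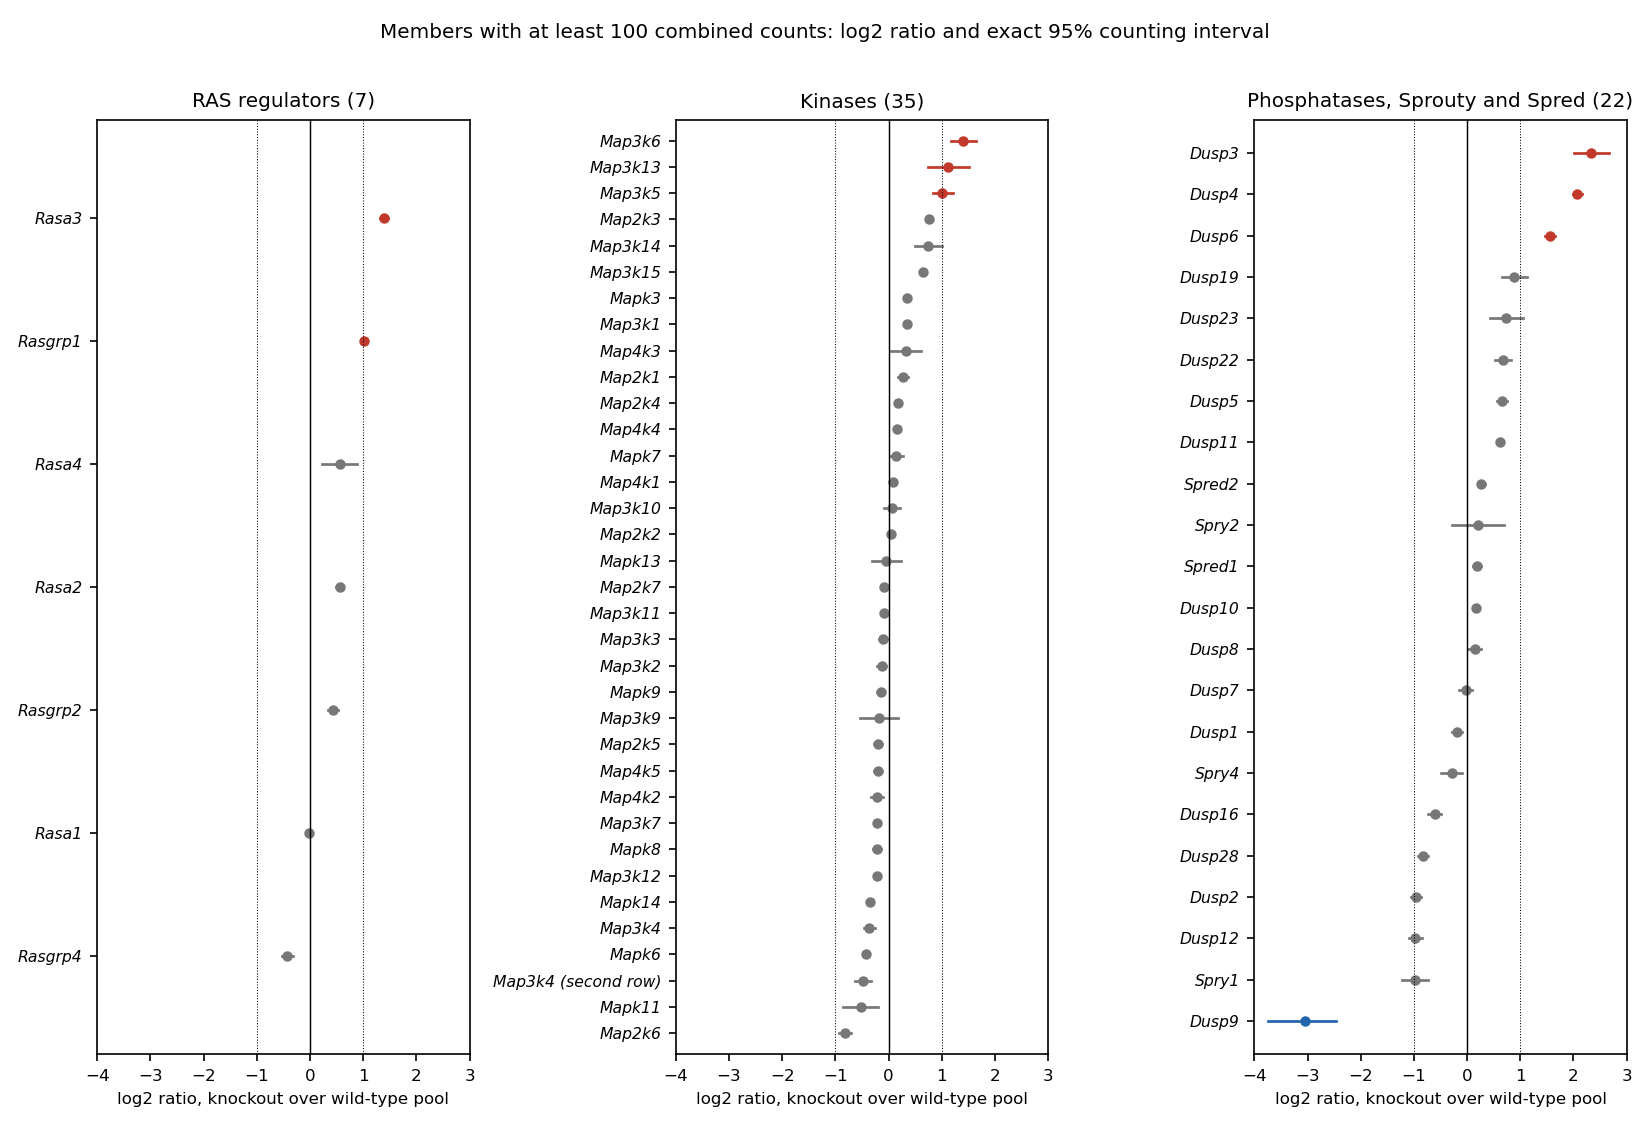
Log2 ratio of the knockout over the wild-type pool for members with at least 100 combined counts, in 3 panels by class, with 1 kinase not drawn. Points are ratios, lines exact 95% counting intervals, dotted lines the 2-fold limits; red marks members called higher and blue the one called lower. Kinases lie within the 2-fold limits except Map3k6, Map3k13 and Map3k5, while the brakes reach from -3.05 (Dusp9) to 2.33 (Dusp3).

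Both sides of the RAS switch had a higher member. Rasgrp1, the exchange factor that couples the T cell receptor to RAS (chromosome 2), had 10932 against 5479 counts. The level of Rasgrp1 was 102.7 against 50.7 CPM, and its log2 ratio, 1.02 (0.97 to 1.06), lay just past the 2-fold limit. Rasa3, a GTPase activating protein of the membrane-bound GAP1 group (chromosome 8), had 4626 against 1786 counts and stood at 1.39 (1.32 to 1.47). An activator and an inhibitor of RAS were thus higher in the same pool. Per length of exon, Rasgrp1 was 2.15 times Rasa3 in the knockout pool and 2.79 times in the wild-type pool, a pair chosen after their values were seen.

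The other RAS regulators lay under the 2-fold limit. Rasgrp2, an exchange factor best known for Rap in platelets and lymphocytes, had 2315 against 1747 counts (0.43, 0.34 to 0.52). Rasgrp4, known from mast and myeloid cells, had 1337 against 1829 counts (-0.43, -0.53 to -0.33). It shares 978 of 6363 exon bases with Fam98c on the other strand, which stood at -0.89; the part of those reads in the value of Rasgrp4 was not tested. Rasgrp3, the B cell member, had 45 against 26 counts, too few for a call. Rasa1, the founding RAS GTPase activator, was almost equal in both pools at 46.4 and 47.2 CPM, with an interval of -0.08 to 0.03. Rasa2 and Rasa4 had like ratios of 0.56 (0.49 to 0.62 and 0.23 to 0.89), but Rasa4 on only 192 against 132 counts. The median over the 8 RAS regulators was 0.56.

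Of the 16 rows of the Map3k tier, 15 had at least 100 counts. Of these, 3 were called higher (20%) and none lower, beside 11.2% and 5.36% of all genes. All 3 stood at low levels. Map3k6 (ASK2) and Map3k5 (ASK1) are stress-sensing kinases that form complexes with each other. Map3k6 had 529 against 203 counts and stood at 1.40 (1.17 to 1.64). Map3k5 had 695 against 349 counts and lay on the limit at 1.01 (0.83 to 1.20). Map3k13 (LZK), a leucine zipper kinase of the JNK branch, had 187 against 87 counts (1.12, 0.75 to 1.51). It shares exon bases with 2 noncoding genes, 1 on its own strand. Per exon length these 3 genes stood at 1.08, 1.07 and 0.20 RPKM (CPM per kilobase of exon) with the knockout.

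The abundant Map3k genes differed little. Map3k7 (TAK1), which links antigen and cytokine receptors to JNK, p38 and NF-kappaB, had 7263 against 8542 counts (-0.21, -0.26 to -0.17). Map3k1 stood at 0.34 and Map3k11 at -0.08. Map3k14 (NIK), the kinase of the noncanonical NF-kappaB pathway, was at 0.75 on 343 against 207 counts and was not called. Both rows of Map3k4 lay below 0, at -0.36 (1296 against 1690 counts) and -0.48 (621 against 880). They share a symbol, so reads may be divided between copies and each value is uncertain. Map3k2, Map3k3, Map3k9 and Map3k10 lay between -0.17 and 0.07, and Map3k8 had 48 against 45 counts.

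The largest counts of this tier came from genes that overlap abundant neighbours. Map3k12 (DLK), known mainly from neurons, had 35433 against 42014 counts (-0.22, -0.25 to -0.20). It shares 1573 of its 8989 exon bases with Pcbp2 on the other strand, which had 74937 against 86403 counts and stood at -0.18. Map3k15 (ASK3), on chromosome X, had 11029 against 7188 counts (0.64, 0.60 to 0.68). It shares 603 of 4348 exon bases with Pdha1, again on the other strand, which had 40780 against 24517 counts and stood at 0.76. In both cases the ratio lay close to that of the neighbour. Libraries marked the strand, but the sources do not say whether counting used it, so reads of these members and of their neighbours cannot be told apart. Dusp12 shares 891 of its 2743 exon bases with Gm9929 on the other strand, and its value is uncertain in the same way. Further members share exon bases with other genes. Among them are Map2k7 (1349 of 3829, with Gm49320 on its own strand), Spry1 (710 of 2906) and Dusp5 (547 of 2473). Dusp19 shares 131 of 2992 with Nup35 on its own strand. The part of such reads in their values was not tested.

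The 5 Map4k genes, which feed the JNK branch, were all within 0.34 of 0. Map4k4 was at 133.7 against 120.2 CPM (0.15, 0.12 to 0.19). Map4k1 (HPK1), a blood-cell kinase that dampens antigen receptor signals, was at 59.5 against 56.0 CPM (0.09, 0.04 to 0.14). Map4k3, Map4k2 and Map4k5 stood at 0.33, -0.21 and -0.20. No member of this tier was called.

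In the Map2k tier the p38 activators moved apart. Map2k3 had 7966 against 4766 counts (0.76, 0.71 to 0.81), and Map2k6 had 1033 against 1850 counts (-0.82, -0.93 to -0.71). Neither passed the 2-fold limit, but their intervals lay on opposite sides of 0. Per exon length, Map2k3 exceeded Map2k6 by 8.01 times in the knockout pool and 2.68 times in the wild-type pool, and the sum of both was 25.4 against 18.3 RPKM. This pair was chosen after its values were seen. The ERK activators Map2k1 and Map2k2 stood at 0.27 and 0.05, the JNK activators Map2k4 and Map2k7 at 0.18 and -0.08, and Map2k5, which activates ERK5, at -0.20.

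None of the MAP kinases themselves was called. Mapk3 (ERK1) had 4901 against 3916 counts (0.34, 0.28 to 0.41). Mapk14 (p38 alpha) had 5265 against 6815 counts (-0.35, -0.40 to -0.30). Mapk11 (p38 beta) was the lowest of those with at least 100 counts at -0.53 on 132 against 193 counts, and Mapk13 (p38 delta) was near 0 at -0.04. The JNK genes Mapk8 and Mapk9 stood at -0.22 and -0.15. Mapk6 (ERK3), an atypical member, was at -0.42 and Mapk7 (ERK5) at 0.14. Of the 9 members with enough counts, 7 lay below 0, beside 55.2% of all genes.

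Brakes differed from gene to gene, first among the nuclear phosphatases that signals induce. Dusp4 (MKP2), which acts on ERK and JNK (chromosome 8, 34807297 to 34819894 in GENCODE M21 on GRCm38), had 5233 against 1263 counts. The level of Dusp4 was 49.2 against 11.7 CPM and its log2 ratio 2.07 (1.98 to 2.16). Dusp2 (PAC1), the phosphatase first known from activated T cells, went the other way with 1378 against 2706 counts. Its log2 ratio of -0.95 (-1.05 to -0.86) stayed short of the limit. The make-up of this group therefore differed between the pools: per exon length, Dusp2 was the most abundant of the 4 in the wild-type pool with 44.2% of their sum, and Dusp4 was in the knockout pool with 46.4%.

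Dusp5, an ERK-specific nuclear phosphatase whose promoter with its paired CArG boxes is printed above, had 2509 against 1619 counts (0.65, 0.56 to 0.74). Dusp1 (MKP1), an immediate-early gene that acts mainly on p38 and JNK, had 1680 against 1953 counts (-0.20, -0.29 to -0.10). Neither was called, so 1 of the 4 nuclear phosphatases was higher and none lower, beside 11.2% and 5.36% of all genes.

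The cytoplasmic, ERK-directed phosphatases held the largest opposite differences. Dusp6 (MKP3), a feedback inhibitor of ERK (chromosome 10), had 4095 against 1412 counts, or 38.5 against 13.1 CPM, which gives 1.56 (1.47 to 1.65) on the log2 scale. Dusp9 (MKP4), on chromosome X, had 24 against 205 counts and stood at -3.05 (-3.75 to -2.46). Its level was low in both pools, at 0.23 and 1.90 CPM. Dusp7, the remaining member of this group, was equal within counting error at 9.45 and 9.62 CPM (-0.15 to 0.10). Xist, the RNA of the inactive X, had 75 against 21976 counts. Genotype and sex therefore cannot be told apart in these pools, for X-linked members or for any other gene.

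Among phosphatases of the JNK and p38 branches, Dusp10 (MKP5) was the member of the whole pathway with the highest level per length in the knockout pool, 41.4 RPKM against 36.7 in the wild-type pool. On 13412 against 12074 counts its log2 ratio was 0.17 (0.14 to 0.21). Dusp16 (MKP7) stood at -0.61 (-0.73 to -0.48) on 923 against 1425 counts and Dusp8 at 0.15. None was called.

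Of the 14 atypical dual specificity phosphatases 7 had enough counts, and 1 was called higher (14.3%, near the 11.2% of all genes). Dusp3 (VHR), which can dephosphorylate ERK and JNK (chromosome 11), had 464 against 93 counts and stood at 2.33 (2.02 to 2.68). It had the highest ratio of the members with at least 100 counts, at a low level of 4.36 against 0.86 CPM. It shares 604 of 4682 exon bases with the antisense gene Gm20659. Dusp11, an RNA phosphatase rather than a MAP kinase brake, was the most abundant of this group in the knockout pool and had 16384 against 10836 counts (0.62, 0.58 to 0.65). Dusp12 and Dusp28 lay at -0.97 (-1.10 to -0.85) and -0.83 (-0.93 to -0.73). Dusp22, which acts on the T cell kinase Lck, stood at 0.67, and Dusp19 and Dusp23 at 0.89 and 0.73. Under 100 counts were Dusp14 (33 against 43) and Dusp18 (42 against 51).

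The Sprouty genes were scarce and none was called. Spry1, which restrains antigen receptor signals in T cells, had 199 against 398 counts and a log2 ratio of -0.98 (-1.23 to -0.73), next to the limit. Spry4 had 390 against 485 counts (-0.29, -0.49 to -0.10) and Spry2 had 77 against 68 (0.20, -0.29 to 0.69). Together they summed to 6.26 against 8.80 CPM. The Spred genes, whose products hold neurofibromin at the membrane, were more abundant and differed little: Spred2 was at 35.8 against 29.7 CPM (0.27) and Spred1 at 28.7 against 25.3 (0.18). Spred3 had 47 against 46 counts.

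**Figure D2:**
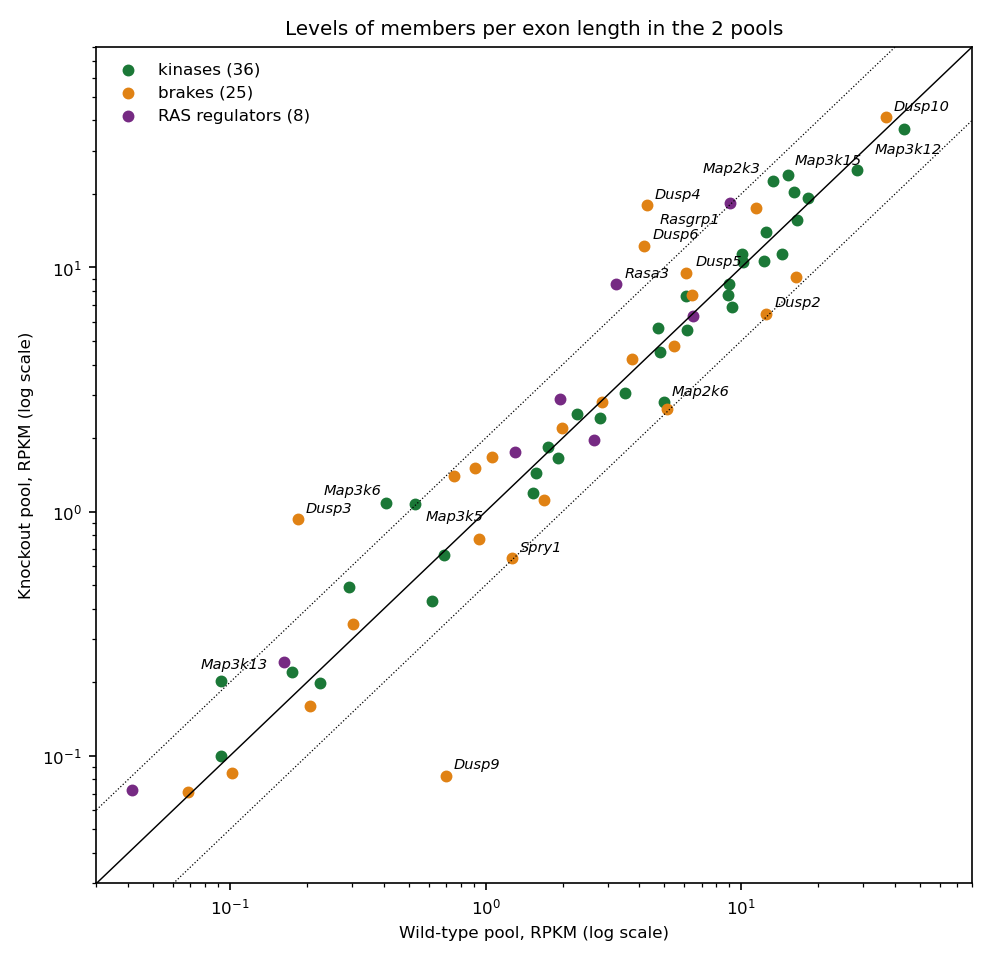
Level per exon length (RPKM, log scales) of the 69 members with at least 20 counts and a GENCODE M21 match, wild-type pool on the x axis and knockout pool on the y axis; the line marks equality and dotted lines 2-fold differences. Rasa3, Map3k6, Dusp4, Dusp6 and Dusp3 lie clearly above the upper dotted line and Dusp9 far below the lower one, while most kinases follow the line of equality.

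Set against each other, the kinases summed to nearly the same level in both pools and the brakes did not. The log2 ratio of the summed CPM was -0.03 for the 41 kinases and 0.35 for the 30 brakes. The sum of the brakes rests on few genes: without the most abundant member of each of the 6 brake groups (Dusp4, Dusp6, Dusp10, Dusp11, Spred2 and Spry4) it turned to -0.15, and without Dusp11 alone it was 0.26. With TMM scaling the kinases turned to 0.05 and the brakes stood at 0.43. The median over members with at least 20 counts was 0.15 for the brakes and -0.08 for the kinases, and that of the kinases turned to 0.0035 with TMM. Among brakes with at least 100 counts, 3 were higher (13.6%), 1 lower (4.55%) and 18 neither. Both shares lay near those of all genes, 11.2% and 5.36%, and are no result about the brakes. The spread differed more than the middle: from -0.82 to 1.40 for the kinases and from -3.05 to 2.33 for the brakes.

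Other genes of the pathway were taken from 7 lists. Of 23 genes that ERK induces or that encode its transcription factors, 21 had at least 100 counts. Of these, 7 were higher (33.3%) and none lower, beside 11.2% and 5.36% of all genes. Their median was 0.76, beside -0.07 over all genes, and 18 of the 21 lay above 0, as did 44.8% of all genes. The list was chosen with earlier results of these data known, so these values are a description and no test. The higher ones were the ephrin receptor gene Epha2 (2.56, 2.10 to 3.07), Phlda1 (1.44), the AP-1 gene Junb (1.36), Nr4a1 (1.20), Elk3 (1.20), Ier3 (1.18) and Egr2 (1.15). Elk3 encodes an ETS factor that ERK phosphorylates. Under the limit, Etv4 and Etv5, ETS factors that often follow ERK along with Dusp6, stood at 0.97 and 0.91, and Egr1 at 0.83 on 10630 against 6062 counts. Lowest were Elk4 at -0.68 and Srf, which encodes the factor that binds CArG boxes, at -0.44. Fos and Myc stood at 0.43 and 0.28.

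Upstream, the proximal T cell list had 2 of 14 genes higher (14.3%) and none lower, with a median of 0.08. Over all genes 11.2% were higher and 5.36% lower, so the share of higher genes lay near that of all genes. Dgka, a diacylglycerol kinase that removes the lipid Rasgrp1 needs, was higher with 14390 against 1843 counts (2.99, 2.92 to 3.06). Its relative Dgkz stood at -0.76, so that Dgka held 68.6% of their summed RPKM with the knockout, against 14.0% in the wild-type pool. The adaptor gene Grap2 (GADS) was higher at 1.12. Lck, Lat and Zap70, which start the antigen receptor signal, stood at -0.39, -0.69 and 0.11.

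Of 10 RAS and RAF genes with enough counts 2 were higher (20%) and none lower, beside 11.2% and 5.36% of all genes. They were the RAS relatives Mras (1.49 on 103 against 37 counts) and Rras (1.36). Their relative Rras2 was far more abundant, with 20150 against 11287 counts, and stood at 0.86 (0.82 to 0.89), under the limit. Nras and Braf stood at -0.08 and 0.36, and the scaffold gene Ksr1 was lowest at -0.55. Of 16 further RAS regulators 2 were higher (12.5%, near the share of all genes) and none lower. The higher ones were the docking protein gene Gab1 (2.08 on 405 against 97 counts) and Rasal2 (1.19), and Rapgef1 was lowest at -0.79. Among 20 scaffolds and partners with enough counts, 2 were higher (10%) and 1 lower (5%). Both shares lay near those of all genes and are no result about this list. Pea15a, whose product holds ERK in the cytoplasm, was at 2.03, and Gadd45g, an activator of the p38 and JNK branches, at 1.91. The JNK scaffold gene Mapk8ip1 was lower at -2.77 on 15 against 107 counts.

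Downstream kinases were level but for 1 gene. Rps6ka6 (RSK4), on chromosome X, had 161 against 3 counts (5.55, 4.19 to 8.06), and genotype and sex cannot be told apart for it either. Rps6ka4 was next at 0.45 and Mknk1 lowest at -0.28. None of 6 other phosphatases with enough counts was called; all 6 lay between -0.45 (Ppm1a) and -0.08 (Ppm1d), with Ptpn7, a T cell phosphatase of ERK, at -0.16.

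**Figure D3:**
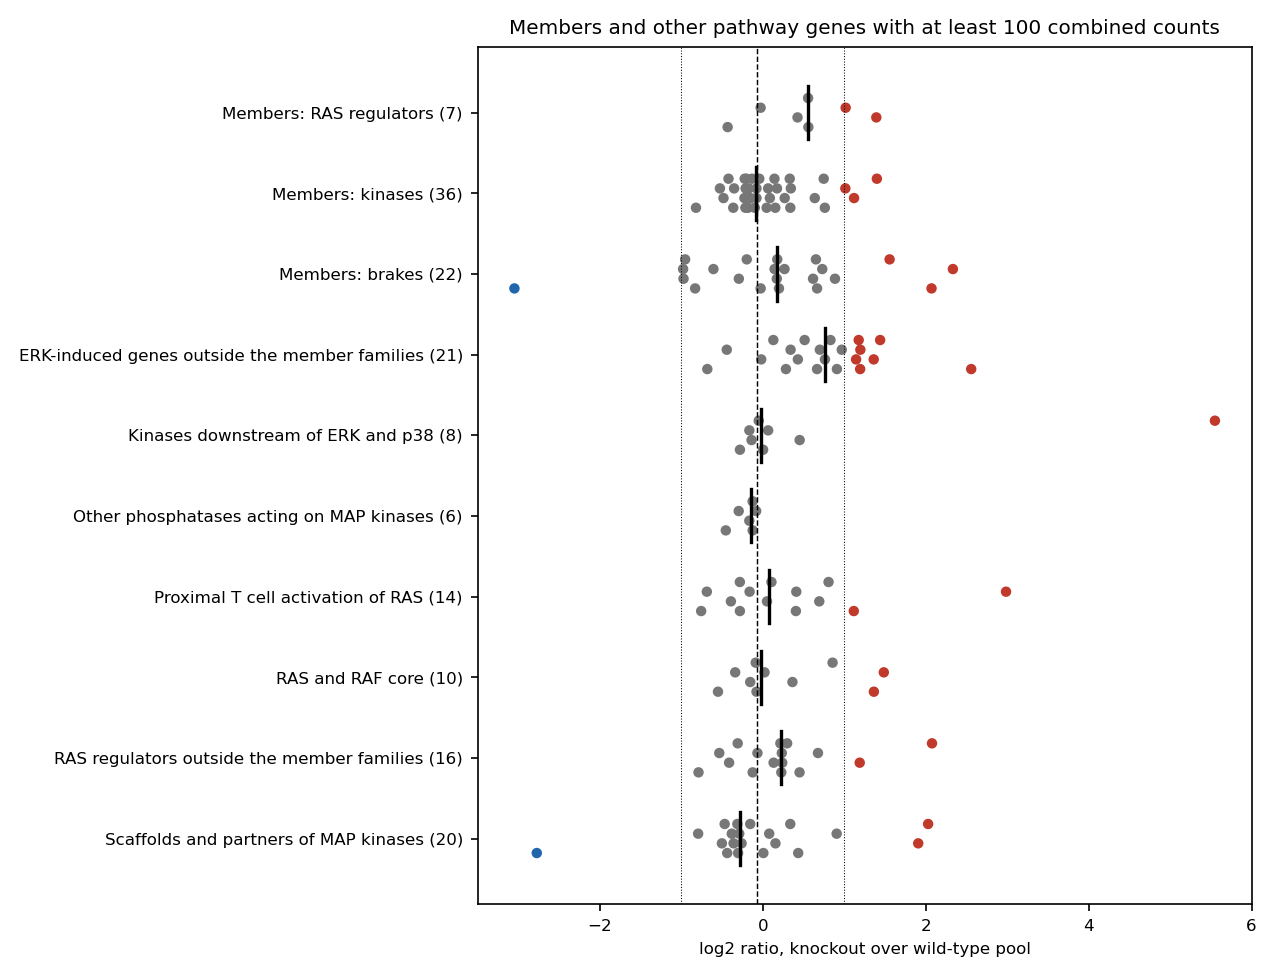
Log2 ratios of members by class and of the 7 other pathway lists, for genes with at least 100 combined counts (numbers in brackets); red marks genes called higher and blue those called lower, black ticks are medians over the genes shown, the dashed line the median of all such genes and dotted lines the 2-fold limits. Most genes of the ERK-induced list lie to the right of the dashed line, while the kinases gather around it. That list also holds transcription factors of ERK, of which Elk4 lies farthest to the left of the line.

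Markers of several other blood cell types, though not of B cells, were called higher in the knockout pool beside these members. The shares over all genes were 11.2% higher and 5.36% lower. All 11 macrophage and monocyte markers were called higher, at 1.37 to 2.43, and their summed level was 367.9 against 123.0 CPM, led by Vcam1 (10200 against 3996 counts) and C1qc (6025 against 1762). Mast cell and basophil markers were higher in 4 of 4 cases with enough counts, summing to 18.01 against 1.56 CPM and led by Cpa3 (877 against 86 counts) and Mcpt8 (800 against 60). Megakaryocyte markers were higher in 4 of 6 (38.4 against 16.4 CPM), NK and cytotoxic markers in 6 of 7 (239.3 against 248.7 CPM, a sum led by Gzma at -0.29), erythroid markers in 3 of 8 (25698 against 12866 CPM) and neutrophil markers in 3 of 9 (2435 against 1996 CPM). Stromal and endothelial markers were higher in 3 of 8 and lower in 1 (148.7 against 183.7 CPM). B cell markers were lower in 1 of 5 and higher in none (7.76 against 8.91 CPM). No listed marker found in the table was at 0 in either pool.

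T cell markers were at -1.06 to 0.22, with 1 of 10 lower (Thy1) and a sum of 2703 against 3580 CPM. The ratios of the 8 higher members, 1.01 to 2.33, overlapped those of the higher macrophage, NK, megakaryocyte, erythroid, neutrophil and stromal markers. Members and markers were called by the same 2-fold rule, so some overlap is likely by the rule alone. Rasgrp1 (1.02), Map3k5 (1.01) and Map3k13 (1.12) lay below every macrophage marker. In pooled bulk RNA more cells of a type and more RNA per cell cannot be told apart, and the part of other cells in the ratios of Dusp3, Dusp4, Dusp6, Map3k5, Map3k6, Map3k13, Rasa3 and Rasgrp1, and of the ERK-induced genes, was not tested.

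**Figure D4:**
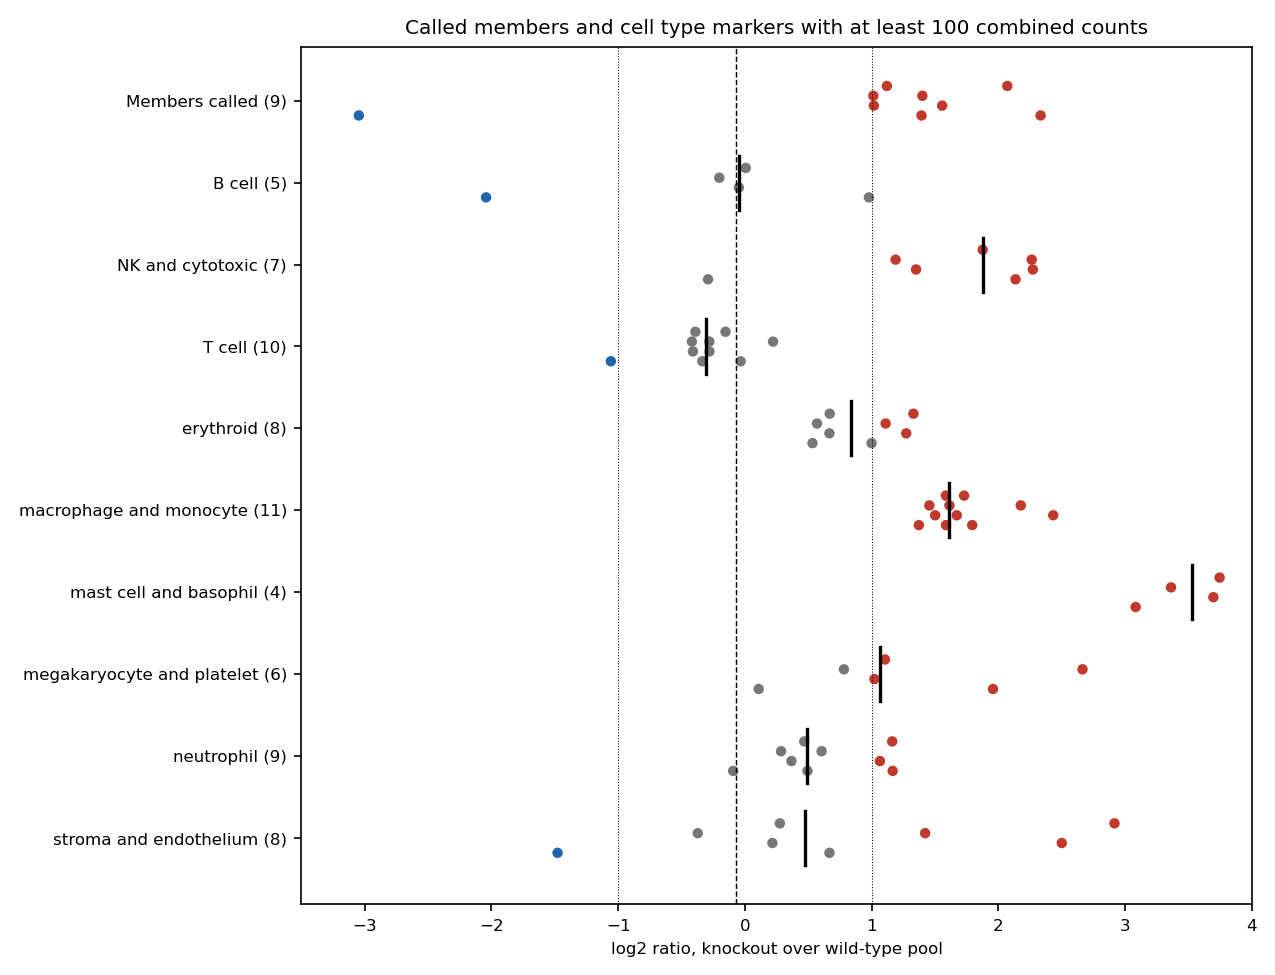
Log2 ratios of the 9 called members and of cell type markers with at least 100 combined counts (numbers in brackets); red marks genes called higher and blue those called lower, ticks are medians of the marker lists, the dashed line the median of all genes and dotted lines the 2-fold limits. The macrophage and monocyte markers, 1.37 to 2.43, span much of the range of the called higher members, as do the higher NK and megakaryocyte markers.

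The remaining members were at the edge of detection. Mapk15 had 0 against 8 counts, and a count of 0 allows up to 3 counts, or 0.028 CPM. Mapk4, Mapk10, Mapk12, Dusp13, Dusp26 and Dusp27 had between 2 and 9 counts in both pools together. Dusp15 and Dusp21 had no count. No ratio is given for these genes.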

How the data were processed

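RNA libraries of Notch1-IC leukaemias were selected for poly(A) and marked the strand by the dUTP method, per the labels' protocols; the design text names Ribominus as another choice. CASAVA, TopHat and mm9 are named by the submitters' processing notes, with no version given; how reads were counted, on which strand and with which annotation was not stated. A single deposited DEGseq table was used, in which the authors pooled read counts by genotype. The sources do not name the samples in each pool. Its title lists the knockout before the wild-type, and the value columns were read in that order; Kdm6a was lower in the first. It also carries log2 fold changes, a z score, p-values and q-values from the authors' DEGseq test, which holds no spread between tumours. Of these the Benjamini-Hochberg q-value and the normalized log2 fold change were used, together, in an alternative rule for calls. The number of columns with values per sample was 0.

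CPM, log2 ratios and Clopper-Pearson intervals were computed with Python 3.11.15 and scipy 1.17.1. RPKM uses the union of exons in GENCODE M21 (GRCm38), matched by identifier, so that levels per length depend on an annotation other than the authors'. Reads without molecular identifiers are not independent molecules, and intervals may be narrower than the true counting error; half-widths of members ran from 0.020 to 0.64. TMM came from edgeR 4.0.16 and the median of ratios from DESeq2 1.42.0, used for scaling alone. Calls and intervals were checked on simulated Poisson counts. Such counts hold no spread between tumours and no duplicate reads, so the check covers the computation alone and not the calls in these data. Members and lists were chosen with earlier results of these data known. The rule for names took, per group of members, each called gene, the 2 with the highest mean CPM and the highest and lowest log2 ratio; per other pathway list the called genes and both extremes; and per cell type list the 2 most abundant genes. Further members and pathway genes, such as Egr1, Fos and Zap70, were named after their values were seen. Some pathway genes are not reported here. Promoter sequences are from RefSeq (GRCm38.p6), where 62 member genes were found. Alternatives were other scalings, pseudocounts, and count and fold minimums; leaving out rows that overlap other genes, or Dusp11, was added after seeing the data.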

Additional observations from a re-analysis of the deposited data

How the results depend on the processing

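The same 65 members with at least 100 counts kept their calls, or stayed without one, under scaling by TMM, by the median of ratios or by the upper quartile, with a depth without mitochondrial and erythroid genes (chosen after seeing the data) and a pseudocount of 5. The number of members called higher, 8, became 16 with a 1.5-fold minimum and 2, Dusp3 and Dusp4, with a 3-fold minimum. It was 6 without members that share exon bases with another gene, which drops Dusp3 and Map3k13. The number called lower, 1, became 7 with a 1.5-fold minimum, 2 with no count minimum beyond 1 (Mapk15 is then included) and 0 with at least 500 counts. Of the genes that ERK induces or that encode its transcription factors, 7 were higher. This became 13 with a 1.5-fold minimum, 1 (Epha2) with a 3-fold minimum and 8 with TMM. From the same list 0 were lower, and 1 (Elk4) with the 1.5-fold minimum. The median of the kinases, -0.08, turned to 0.0035 with TMM, 0.014 with the depth without mitochondrial and erythroid genes and 0.070 with the mean, so it has no fixed sign. The median of the RAS regulators, 0.56, was 0.65 with that depth. The log2 ratio of the summed kinases, -0.03, was 0.052 with TMM, 0.061 without the most abundant member of each group and -0.016 without Map3k12 and Map3k15. That of the brakes, 0.35, was 0.43 with TMM, -0.15 without the most abundant member of each group and 0.26 without Dusp11. The alternative scalings add up to 0.09 to each log2 ratio.

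No paired analysis was possible because the table holds 1 pooled value per genotype and no values per replicate; for the same reason no replicate could be left out. Genes with 100 to 200 counts had a median half-width of 0.54, so differences smaller than about this were not detectable there. Counting error was smaller for abundant members, but the spread between tumours is unknown for every gene.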
